A study of Mus musculus with 9 samples.

Results

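Cohesin sites that were called in pre-B cells and in DN thymocytes but not in DP thymocytes were examined by ChIP-seq for Rad21, a subunit of cohesin. Peaks of the 3 Rad21 lists on chromosomes 1 to 19 were merged into 1 site wherever they overlapped by 1 bp or more, and a site was selected when it held a pre-B peak and a DN peak but no DP peak. Of 45491 merged sites, 377 met this rule. They made up 4.23% of the 8923 sites with both a pre-B and a DN peak, against 21.7% of all merged sites that had no DP peak. The remaining 8546 sites with a pre-B and a DN peak also held a DP peak and were used for comparison. The DP list was the longest of the 3, with 36743 peaks, against 30488 in pre-B cells and 9701 in DN thymocytes. A site without a DP peak was not called in that list, which is not a measurement of absent cohesin. The count also depended on list length, since 1338 sites met the rule, overlapping 96 of the 377, when each Rad21 list was limited to its 9701 highest peaks.

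All cells came from C57BL/6 mice that cannot rearrange their antigen receptor genes because they lack RAG. Pre-B cells (RAG-/-µ+) were bone marrow cells of mice with a rearranged IgM transgene, DN cells were Rag1-/- thymocytes without CD4 and CD8, and DP cells were Rag1-/- thymocytes with a rearranged TCRb transgene, which brings them to the CD4+CD8+ stage. Bone marrow came from mice of 6 to 14 weeks and thymocytes from mice of 4 to 8 weeks. CTCF was measured in the same pre-B cells and also in RAG1-/- pro-B cells that had been cultured with IL7 for 7 days. Every antibody and cell type had 1 library, so the spread between animals is unknown and no test between cell types was possible, and the presence of the marker genes of each cell type could not be checked from peak lists. Age and tissue separated pre-B cells from the thymocytes, which shared both, and DP differed from DN thymocytes in cell stage together with the TCRb transgene, so that these cannot be told apart.

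Cohesin is a ring-shaped complex that holds DNA together and extrudes chromatin loops, and Rad21 is the subunit that closes the ring. CTCF, a zinc finger protein bound to an oriented DNA motif, halts cohesin and thereby anchors many loops. In lymphocyte precursors such loops bring distant V gene segments toward the segments they recombine with.

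Sequences from the mm9 genome are shown for 11 of the 377 sites, to let the finding be read at the level of the DNA. Capitals mark the best match to the de novo CTCF consensus of the study, a motif of 12 bases, where it had at most 2 mismatches, and 40 bases are given on each side. The first set holds the site of highest rank, near the trace amine receptor gene Taar6 (chr10:23699254-23699345, reverse strand), the site in an intron of Hs3st1 (chr5:40030854-40030945, forward strand), and a site near the olfactory receptor gene Olfr283 (chr15:98220405-98220496, forward strand), which matched without a mismatch.
Taar6: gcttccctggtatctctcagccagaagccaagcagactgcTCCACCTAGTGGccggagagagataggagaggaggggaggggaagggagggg
Hs3st1: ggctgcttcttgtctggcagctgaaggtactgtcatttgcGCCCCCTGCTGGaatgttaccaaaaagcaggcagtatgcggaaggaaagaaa
Olfr283: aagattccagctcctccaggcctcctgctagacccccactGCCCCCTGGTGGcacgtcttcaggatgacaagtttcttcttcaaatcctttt

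The next sequence is that of the site beside Trbv1, a V segment that T cells rearrange, in the T cell receptor beta locus (chr6:40843682-40843773, reverse strand, no mismatch).
Trbv1: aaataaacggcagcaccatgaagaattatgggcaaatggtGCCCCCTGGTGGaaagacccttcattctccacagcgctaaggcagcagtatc

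The next set holds copied sequence. The sites near the vomeronasal receptor genes Vmn2r20 (chr6:123374607-123374698) and Vmn2r21 (chr6:123489952-123490043) had 0 differences over the 92 bases shown, and the sites nearest to Gm8979 (chr7:113198725-113198816) and Gm8989 (chr7:113440585-113440676) also had 0. The last pair held no match within 2 mismatches, so the middle of each site is shown in lower case. All are on the forward strand.
Vmn2r20: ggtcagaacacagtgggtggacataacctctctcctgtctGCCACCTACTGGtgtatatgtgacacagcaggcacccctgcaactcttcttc
Vmn2r21: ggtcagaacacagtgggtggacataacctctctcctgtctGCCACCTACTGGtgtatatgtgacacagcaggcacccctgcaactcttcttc
Gm8979: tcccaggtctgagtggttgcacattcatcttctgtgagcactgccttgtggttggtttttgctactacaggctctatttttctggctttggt
Gm8989: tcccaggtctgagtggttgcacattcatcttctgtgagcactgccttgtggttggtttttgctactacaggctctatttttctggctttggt

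The last set holds the middle of 3 promoter sites whose best match had 3 mismatches, on the forward strand: those of Bcl11a (chr11:23981429-23981520), of Ryr2 (chr13:12199250-12199341) and of Cpeb2 (chr5:43623914-43624005), of which the last held no CTCF peak.
Bcl11a: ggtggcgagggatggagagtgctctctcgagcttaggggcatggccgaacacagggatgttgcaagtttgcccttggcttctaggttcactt
Ryr2: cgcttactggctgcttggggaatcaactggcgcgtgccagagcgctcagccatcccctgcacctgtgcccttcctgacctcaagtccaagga
Cpeb2: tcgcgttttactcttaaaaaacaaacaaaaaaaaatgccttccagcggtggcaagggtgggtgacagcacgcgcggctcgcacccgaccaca

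The sites without a DP peak lay in the lower part of the DN list. Each site was placed by the percentile of its highest peak within its own list, a quantity that the selection rule used and that is therefore only described. The median percentile was 49.0 in the pre-B list (quartiles 30.5 and 68.6) and 24.0 in the DN list (quartiles 11.9 and 40.8). Sites with a DP peak had medians of 82.3 in the pre-B list, 54.3 in the DN list and 84.8 in the DP list. Low ranks were not particular to the selected sites. The DN median was 22.2 at sites called in DN thymocytes alone and 27.4 at those called in DN and DP but not pre-B cells. The pre-B median was 26.6 at sites called in pre-B cells alone and 48.2 at those called in pre-B and DP but not DN cells. The selected sites nevertheless spanned most of both lists, from 0.735 to 97.1 in pre-B cells and from 0.593 to 96.5 in DN thymocytes.

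**Figure D1:**
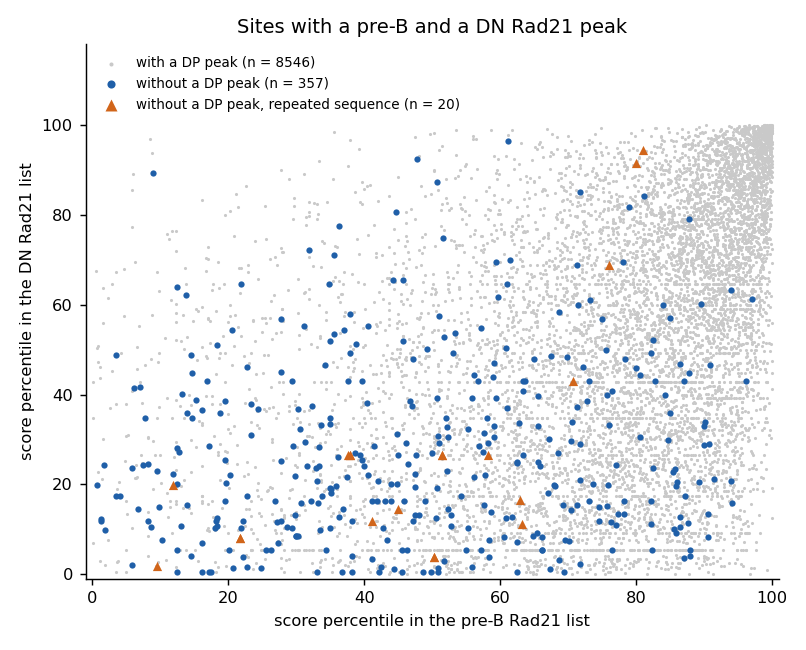
Score percentile in the pre-B Rad21 list (x axis) and in the DN Rad21 list (y axis) of each site with both peaks. Grey points are the 8546 sites with a DP peak, blue points 357 sites without one, and orange triangles the 20 without one whose sequence is repeated elsewhere in the genome. Grey points crowd the upper right, and blue points lie mostly in the lower part of the DN list.

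The share of sites without a DP peak was lower in the upper score bands of both lists, though it did not fall at every step. Among sites with a pre-B and a DN peak it was 8.80% in the lowest 10% of the DN list (71 of 807), 10.7% in the next (90 of 840; 95% interval 8.70 to 13.0%) and 0.417% in the highest 10% (4 of 960; 0.114 to 1.06%). Across the pre-B list it was 22.0% of 100 sites in the lowest 10% of scores (14.3 to 31.4%), 22.8% of 158 in the next (16.5 to 30.1%), 10.6% of 434 in the fifth (7.86 to 13.9%) and 0.484% of 2686 sites in the highest (0.258 to 0.826%). None of the 95 such sites among the top 100 pre-B peaks, and none of the 100 among the top 100 DN peaks, lacked a DP peak. Among the top 1000 peaks, 1 of 942 sites in the pre-B list and 4 of 988 in the DN list lacked one. Intervals are exact Clopper-Pearson intervals and cover counting error only.

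**Figure D2:**
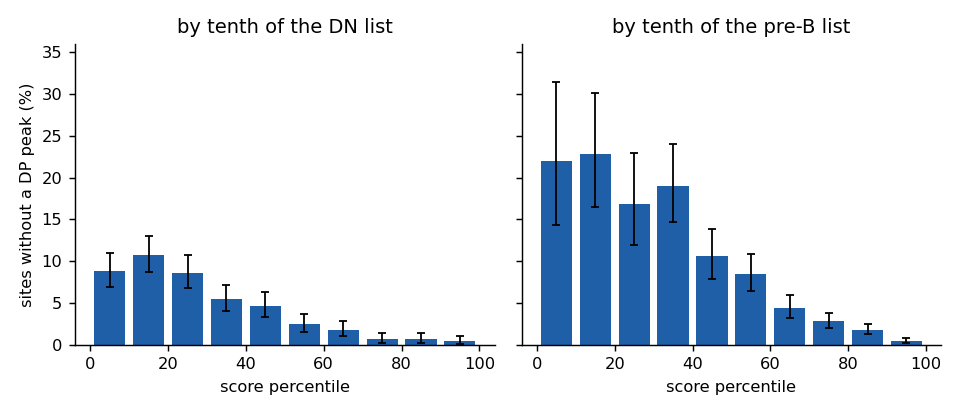
Share of the sites with a pre-B and a DN Rad21 peak that had no DP peak, in percent, by 10% steps of the DN list (left) and of the pre-B list (right), with exact 95% intervals. The share is 8.80% in the lowest 10% and 0.417% in the highest 10% of the DN list.

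Sites were ranked by the lower of their 2 percentiles. Of the first 20, 4 had as nearest protein-coding start a gene named as a trace amine receptor, an olfactory receptor or a Gvin gene. These families were picked after the sites were seen. The first site, chr10:23698857-23699586, lay 5827 bp from the start of Taar6, with a percentile of 81.2 in pre-B cells and 84.1 in DN thymocytes. It ranked 5725 among the pre-B peaks and 1533 among the DN peaks. The next 2 sites lay on chromosome 7, and their nearest genes carry none of these family names. They lay 27042 bp from the start of Gm8989 (81.0 and 94.4) and 22238 bp from that of Gm8979 (79.9 and 91.6). An intron of Gvin1, an interferon-inducible GTPase, held the site of rank 8 (76.0 and 68.9). Near the olfactory receptor genes Olfr56 and Olfr1396 (71.3 and 68.9) and Olfr283 (61.0 and 64.5) lay 2 further sites.

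Others of these 20 lay at further genes or far from any. An intron of March1, a ubiquitin ligase that removes MHC class II from the surface of antigen-presenting cells, held a site at 93.9 in pre-B cells and 63.3 in DN thymocytes. A site 11302 bp from 2900026A02Rik had the highest pre-B percentile of all 377, 97.1, with 61.2 in DN thymocytes, and a DP peak lay 1028 bp away. The highest DN percentile, 96.5, belonged to a site at chr8:6572198-6572839, 932614 bp from the nearest protein-coding start, whose pre-B percentile was 61.1. Introns of Hs3st1, a heparan sulfate sulfotransferase (79.0 and 81.8), Ralgapa2 (78.0 and 69.6), Asph (83.9 and 59.9) and Rbfox3, a neuronal splicing factor (59.6 and 61.8), held 4 more. Intergenic sites lay 12244 bp from the start of Gm17386, 21143 bp from that of Lca5 and 120919 bp from that of Cnksr3, and 1 had Actbl2 as its nearest protein-coding start at 286292 bp. The remaining 3 sites of this group lay at the promoters of Ryr2, D230004N17Rik and Gm12602.

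Nearly all of the selected sites carried CTCF in B lineage cells. A pre-B CTCF peak overlapped 364 of 377 (96.6%, 94.2 to 98.2%) and a CTCF peak of IL7-cultured pro-B cells overlapped 374 (99.2%, 97.7 to 99.8%). These shares were 99.5% and 99.8% at sites with a DP peak, and 64.2% and 71.0% over all merged sites. Of the 377 sites, 363 held CTCF peaks of both lists, 11 of the pro-B list alone and 1 of the pre-B list alone. The 2 sites with neither lay at chr2:169345156-169345765, 61816 bp from 1700101G07Rik, and at the promoter of Cpeb2, a regulator of translation (chr5:43623669-43624250). Their pre-B Rad21 percentiles were 8.16 and 0.735, and their DN percentiles 24.5 and 19.8. CTCF in DN and DP thymocytes was not analysed here, so these shares describe B lineage cells.

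Where both kinds of site held CTCF, the peaks of the selected sites stood lower in the CTCF lists. The median CTCF percentile was 57.9 in the pre-B list and 75.5 in the pro-B list, against 82.4 and 88.4 at sites with a DP peak. The medians were 64.2 and 74.9 over all merged sites that held such a peak, and 49.3 and 66.3 at sites called in pre-B cells alone, so the selected sites stood near the middle of Rad21 sites in the pro-B list. The order between sites with and without a DP peak held for both CTCF lists in all 10 score bands of the DN Rad21 list: in the lowest the pre-B CTCF medians were 59.9 and 74.4, and in the highest 82.5 and 91.7. In the 10 score bands of the pre-B Rad21 list it held for the pre-B CTCF percentile, with medians of 33.2 and 43.5 in the second band and 82.2 and 92.5 in the highest. For the pro-B CTCF percentile it turned in 3 of those bands, where the selected sites stood slightly higher: 69.9 against 65.7 in the lowest band, 75.2 against 74.1 in the third and 75.3 against 74.2 in the fourth. When sites with a DP peak were weighted to the score bands of 20% of both Rad21 lists that the selected sites occupied, the gap narrowed. The mean pre-B CTCF percentile was then 63.0, against 56.3 at the selected sites, and 77.4 against 74.3 in the pro-B list. The share with a pre-B CTCF peak was likewise 97.7% after weighting, against 96.6%, which lies within the interval of the selected sites.

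**Figure D3:**
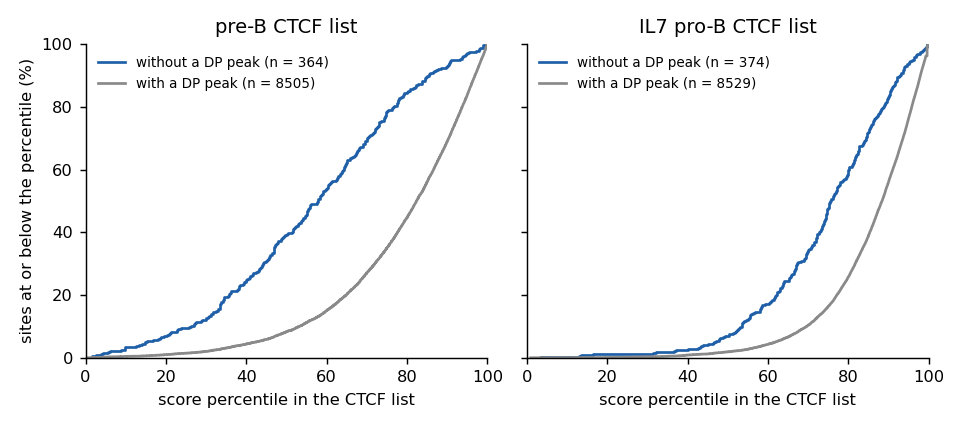
Cumulative share of sites, in percent, by score percentile of their CTCF peak in the pre-B list (left) and in the list of IL7-cultured pro-B cells (right). The blue curves, sites without a DP Rad21 peak, lie to the left of the grey curves, sites with one, with medians of 57.9 and 82.4 in the pre-B list.

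The CTCF consensus, searched on both strands with at most 2 mismatches, was found in the central 200 bases of 151 of the 377 sites (40.1%, 35.1 to 45.2%). It was found in 43.4% of sites with a DP peak and in 26.1% of all merged sites. Sequence of equal length 2000 bp away held it in 2.52% of 754 windows around the selected sites. Over whole sites the share was 49.9% (188 sites), against 62.8% at sites with a DP peak, and 38.6% over all merged sites. The median width was 588 bp for the selected sites and 796 bp for sites with a DP peak, and the pre-B peak alone had medians of 557 and 723 bp. Among the 188 matches the median distance from the middle of the site was 51.8 bp, with 104 on the forward and 84 on the reverse strand. No mismatch at all was present at 11 sites (2.92%), such as those near Olfr283, Trbv1, Stox2, Frmd4a and Mafa, against 3.91% of sites with a DP peak and 1.93% of all merged sites. Median GC content was 45.3%, against 47.9% at sites with a DP peak and 48.9% over all merged sites.

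Promoters held a minority of the selected sites, in a share that depended on the overlap rule. Some base of the site fell within 1000 bp of an annotated transcript start at 28 of 377 (7.43%, 4.99 to 10.6%). When overlap was judged by peak midpoints instead, 56 of 436 selected sites did so (12.8%, 9.85 to 16.4%). Those sites overlapped 376 of the 377. Under that rule a DP peak counted only where its midpoint lay inside the site, so sites that a DP peak overlaps could be selected. The share at sites with a DP peak was not computed under that rule. With an overlap of 1 bp the share was 13.6% at sites with a DP peak, 33.7% at sites called in DP alone, and 23.5% over all merged sites. Measured from the middle of each site, so that width played no part, it was 6.63% (4.34 to 9.63%), beside 939 of the 8546 sites with a DP peak (95% interval of their share 10.3 to 11.7%). Weighting by the score bands left the latter at 15.3% with any base counted. Exons held 13 of the 377 sites (3.45%), introns 132 (35.0%) and intergenic sequence 204 (54.1%, 48.9 to 59.2%), against 47.4% intergenic at sites with a DP peak. The median distance to a protein-coding start was 25207 bp, against 13140 bp, and 74 sites (19.6%) lay more than 100 kb from one, against 7.04%. That share was 9.29% over all merged sites, 27.1% at sites called in DN thymocytes alone (38 of 140) and 21.5% at those called in DN and DP thymocytes but not in pre-B cells (17.7 to 25.7%).

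**Figure D4:**
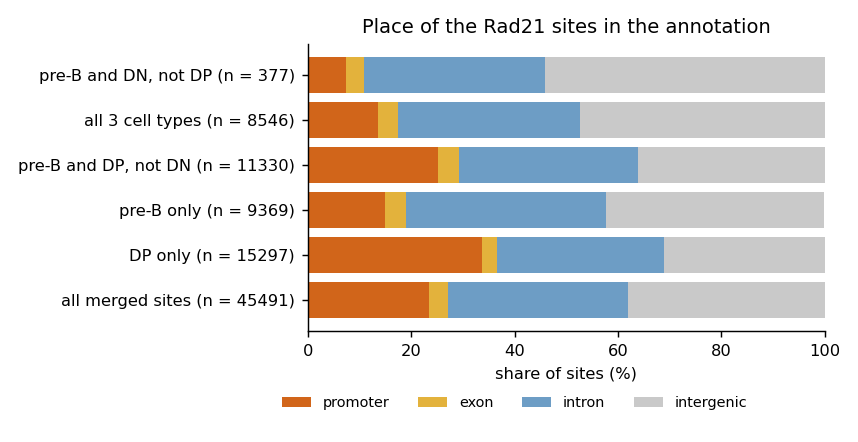
Share of Rad21 sites, in percent, at a promoter (orange), in an exon (yellow), in an intron (blue) and in intergenic sequence (grey), by the cell types in which the site was called. The selected sites, in the top bar, have 7.43% at promoters and 54.1% in intergenic sequence.

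The first 10 promoter sites by rank lay at protein-coding and noncoding genes. The start of Ryr2, the cardiac calcium release channel, lay inside a site with percentiles of 61.4 in pre-B cells and 70.0 in DN thymocytes. Next came the promoters of the noncoding genes D230004N17Rik (71.5 and 59.9) and Gm12602 (59.4 and 69.6), of the kinase genes Lrrk1 (85.0 and 57.1) and Cdk14 (63.7 and 42.9), and of 1700011I03Rik (65.5 and 39.6). Csmd3 (46.8 and 38.6) and Pax2, a transcription factor of kidney development (31.1 and 55.2), followed. The 2 others of the first 10 lay at annotated copies of the small RNA SNORA17, near Ctsc (40.4 and 38.1) and Vmn2r21 (51.5 and 26.5). Protein-coding starts alone accounted for 19 of the 28 promoter sites.

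Bcl11a was the single gene of the listed pathways with a selected site in it or within 10 kb. The 10 lists held 156 names, covering recombination, antigen receptor signalling, IL7 signalling, surface receptors, lineage transcription factors, cell cycle, cohesin and chemokine receptors. Of these, 149 were found in the annotation on these chromosomes, and 143 had some merged Rad21 site, 90 of them a site with both a pre-B and a DN peak. The 1 gene with a selected site was 0.671% of the 149, beside 1.20% of all 21418 protein-coding genes. Bcl11a, a zinc finger factor needed for B cell development, held its site at chr11:23980500-23982450, over its transcript start. The site stood at 85.7 in pre-B cells and 23.5 in DN thymocytes, its pre-B CTCF percentile was 51.7, and a DP peak lay 3815 bp away.

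A few other sites lay at genes of lymphocytes and progenitors, picked here after their values were seen. A second site in March1 (73.0 and 42.9) lay in an exon. Spic, an Ets family factor, had a site 6645 bp from its start (72.2 and 46.2), and Meis1, a homeobox factor of blood progenitors, one at 5480 bp (63.4 and 40.8) with the nearest DP peak 798189 bp away. Sites in introns of Rbpj, the DNA-binding partner of Notch (27.7 and 11.9), and of Lyn, a kinase of B cell receptor signalling (28.7 and 10.5), stood low in both lists.

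The 5 antigen receptor loci examined held 2 of the selected sites. They were 2 of the 400 merged sites of these loci (95% interval of the share 0.0606 to 1.79%) against 0.829% of all merged sites, and 2 of the 57 sites with a pre-B and a DN peak (3.51%, 0.428 to 12.1%) against 4.23%. Both intervals include the share over all sites. The immunoglobulin lambda locus was not analysed here. In the T cell receptor beta locus, 1 of 31 merged sites was selected, at chr6:40843482-40843949. It lay 2187 bp from the start of Trbv1, the first V segment of the locus, with percentiles of 67.9 in pre-B cells and 19.8 in DN thymocytes, and it overlapped peaks of both CTCF lists, with a CTCF percentile of 71.7 in the pre-B list. The nearest DP peak was 152609 bp away. Over the remainder of the locus the 31 sites included 5 called in all 3 cell types and 20 called in DP alone. Most of the 20 lay around the D, J and C segments. The DP cells also carry a rearranged TCRb transgene, and its part in the peaks called there was not tested. The immunoglobulin heavy chain locus held the other, at chr12:116297924-116298506, 1 of 120 merged sites there, with percentiles of 47.6 and 26.5, and 47.1% of its 32-base words occurred again elsewhere. The T cell receptor alpha/delta (180 merged sites), T cell receptor gamma (7) and immunoglobulin kappa (62) loci held none.

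Repeated sequence was present at some of the selected sites. At 20 of the 377 (5.31%, 3.27 to 8.07%) 50% or more of the 32-base words occurred again elsewhere in the genome, against 1.86% (1.58 to 2.17%) at sites with a DP peak and 2.49% over all merged sites. The share was also high, 6.48% (4.35 to 9.23%), at the 432 sites called in DN and DP thymocytes but not in pre-B cells. Put the other way, 11.2% of 179 repeated sites with a pre-B and a DN peak lacked a DP peak (6.96 to 16.7%), and 4.08% of 8744 others (3.68 to 4.52%). For 17 of the 20, 80% or more of these words recurred together at another place, and for all 17 at least 1 such place was itself a selected site. Counting each of these 8 groups of copies once, a choice made after seeing the data, leaves 368 sites, of which 11 were repeated (2.99%, with 5.29% as the upper end of its interval). The share of repeated sites that lacked a DP peak then falls from 11.2% to 6.47% (11 of 170, 3.27 to 11.3%). Both intervals then include the values of the comparison sites, 1.86% and 4.08%, whose own copies were not counted in this way. Reads with as many as 3 alignments were retained by the authors, so copies can share reads, and 8 of these sites formed 4 pairs with equal scores in both lists. The share of reads placed in this way in each library was not analysed here, and its part in the missing DP peaks was not tested. The sites without repeated sequence numbered 357.

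The 8 groups of copies lay on chromosomes 6, 7, 10, 14 and 17. The pair near Gm8979 and Gm8989 shared 91.0% of the words, and 89.8% of the words of the Gvin1 site recurred at the site near Gm4070. Other groups had as nearest starts those of the eosinophil ribonuclease genes Ear1, Ear2 and Ear10, of Vmn2r20 and Vmn2r21, and of Olfr247 and Gm10310. The other 3 groups, all on chromosome 17, paired sites near other protein-coding starts. These were Unc93a and Tcte2, Unc93a and Gm9992, and Gm7168 and Gm7358, whose names fit none of the families counted next. Gene families picked by name after the sites were seen (olfactory, vomeronasal, trace amine and Mas-related receptors, eosinophil ribonucleases and Gvin genes) supplied the nearest protein-coding start of 22 of the 377 sites (5.84%, 3.69 to 8.70%). They supplied that of 0.491% of sites with a DP peak and 0.492% of all merged sites. The 22 include copies of one another, such as those near Ear1, Ear2 and Ear10, so the interval treats copies as separate sites. Olfactory receptor genes were nearest to 11 of the 22. Genes of other names, such as Gm4070 and Gm10310, were not counted, though their sites were copies of those near Gvin1 and Olfr247. Whether they belong to these families was not examined.

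Another selected site lay within 100 kb for 50 of the 377 (13.3%), copied sequence included, and the same count was not made for other sites. In all, 2 stretches shorter than 1 Mb held 4 or more, again with copied sequence included. On chromosome 17, the stretch from 13317054 to 14188591 held 7 selected sites among 14 merged sites, from Unc93a through Tcte2 and Mllt4, with 13 pre-B, 9 DN and 3 DP peaks. On chromosome 7, from 113093721 to 113959626, 6 of 13 merged sites were selected, near Gm4070, Gm8979, Gvin1, Gm8989, Olfr699 and Olfr701, with 13 pre-B, 9 DN and 3 DP peaks. In each stretch 14 pre-B CTCF peaks were called. On chromosome 7, the sites near Gm4070, Gm8979, Gvin1 and Gm8989 were repeated sequence with copies among the selected sites. On chromosome 17, so were those near Unc93a, Gm7168 and Gm7358 and the Tcte2 site at chr17:13651471-13652117. Neither stretch held 4 or more selected sites without repeated sequence. Fgfr2, whose annotation in the reference used spans chr7:137305965-140315033 and other genes, held 4 selected sites, and Ank3, Atrnl1, March1, Nphp4 and Pdzrn3 held 2 each. By chromosome, the share of sites with a pre-B and a DN peak that lacked a DP peak ranged from 2.63% on chromosome 9 (1.41 to 4.45%) to 5.78% on chromosome 7 (4.08 to 7.91%).

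**Figure D5:**
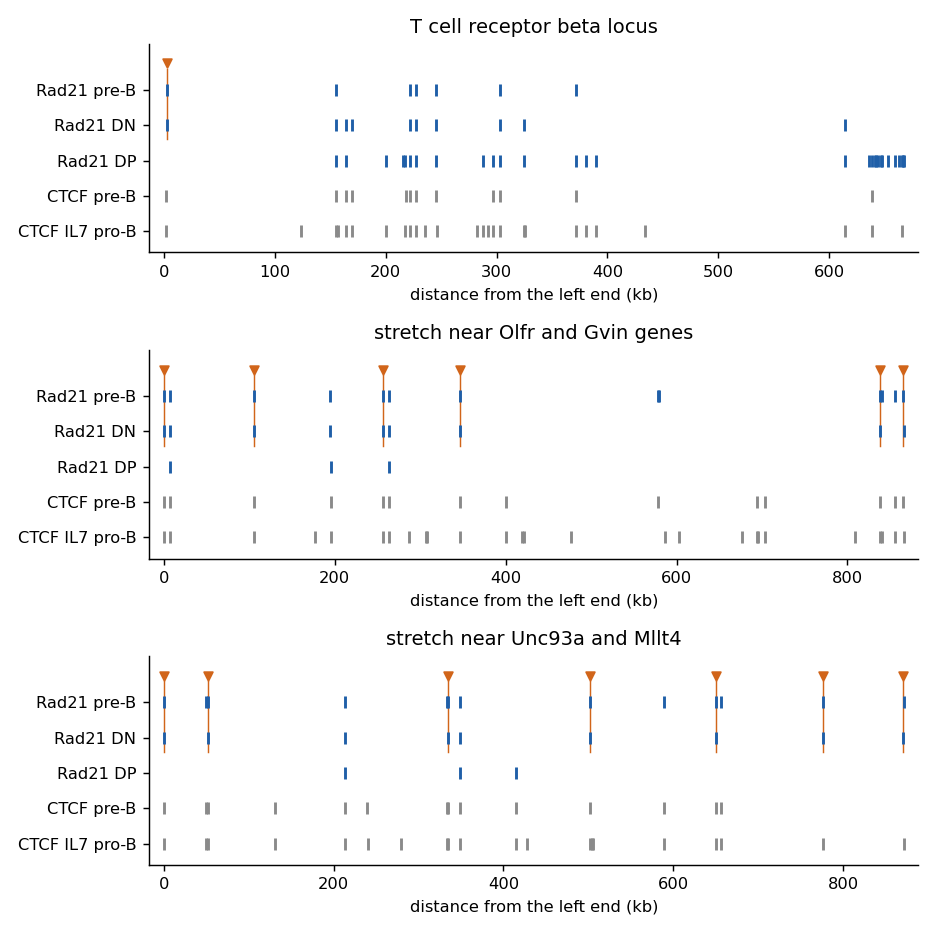
Positions of peaks (ticks, kb from the left end) in the 3 Rad21 and 2 CTCF lists over the T cell receptor beta locus, the stretch on chromosome 7 and the stretch on chromosome 17. Orange triangles mark the 1, 6 and 7 selected sites, where the DP lane is empty and the DN and pre-B lanes hold a peak.

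Gaps from the selected sites to the nearest DP peak varied widely. The median gap was 44030 bp (quartiles 12571 and 131112 bp), 126 sites (33.4%) lay 100 kb or more from the nearest DP peak, and 9 lay closer than 1000 bp. Just outside the overlap rule, gaps were 12 bp at chr1:7387019-7387637, 352 bp near Stox2 and 437 bp near Il1rl1. Just inside it, the smallest overlaps with a DP peak were 205 bp near Rpe65, 206 bp near Lgr5 and 215 bp near 1810037I17Rik. The median gap to a DP peak was 14243 bp at sites called in pre-B cells alone and 59702 bp at the 140 sites called in DN thymocytes alone (quartiles 18516 and 186026 bp).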

How the data were processed

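Data of 5 ChIP-seq libraries were used (Rad21 in pre-B, DN and DP cells, CTCF in pre-B cells, and CTCF in pro-B cells grown with IL7), each with an input of the same cells. The pre-B libraries share 1 input. Duplicate reads and adapters were removed by the authors, who aligned the remainder to mm9 with Bowtie (0.12.9 in the submitters' processing notes, another version in the methods) with as many as 3 alignments allowed per read, and who called peaks against input with MACS 1.4.2. The deposited files give each peak's position and its score, which grows with depth. Scores were therefore compared within a list, as percentiles with ties at their mean rank. The exception was the alternative with a score of at least 100 in every list. The number of reads per library is unknown.

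Members, gene lists and comparisons were chosen with earlier results of these data known. Peaks were merged with Python 3.11.15, pandas 2.3.3, numpy 2.4.6 and numba 0.67.0, genes and starts were taken from GENCODE vM1 (mm9) without pseudogenes, sequence was read from the mm9 genome, and intervals came from scipy 1.17.1. The genome letters carry no soft-masking, so no masked share is given. Sites are not replicates, so shares carry no test. Of the listed gene names, 149 of 156 matched the annotation on chromosomes 1 to 19. Named were the 20 sites with the highest lower percentile of both lists, the first 10 at promoters, those without CTCF (2 sites), every site within 10 kb of a listed gene, and 3 on each side of the overlap rule. Sites of repeated sequence, score-weighted values, antigen receptor loci, gene families and printed sequences were chosen after the data were seen. Code was tested on simulated data. Figures were drawn with matplotlib 3.10.9.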

Additional observations from a re-analysis of the deposited data

Results flagged for a closer look

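Chromosomes X and Y were outside the comparisons above. On chromosome X, 9 sites held a pre-B and a DN Rad21 peak and no DP peak, 6.67% of the 135 X and Y sites with both peaks (95% interval 3.09 to 12.3%), and all 9 held a pre-B CTCF peak.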

How the results depend on the processing

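Which sites counted as lost in DP depended on the length of the lists. With the 3 Rad21 lists limited to 9701 peaks each, 1338 sites had a pre-B and a DN peak and no DP peak, overlapping 96 of the 377, and 100% of the 1338 held a pre-B and 100% a pro-B CTCF peak. With a score of at least 100 in every list, a raw limit that takes no account of depth, there were 469 sites, overlapping 213 of the 377. The number lay between 357 and 436 under the other alternatives. The promoter share was 12.8% with overlap judged by midpoints and 13.5% with a window of 2500 bp, and the consensus share was 13.3% with 1 mismatch and 49.9% over whole sites. Of 34 alternative values, 27 stayed within 1.5 times the count or inside the 95% interval of the share as reported. The alternatives on repeated sequence, protein-coding starts and whole sites were chosen after seeing the data. No paired analysis was possible because each group has 1 library, and no replicate could be left out. The depth of the libraries is unknown, so a weak DP peak below the calling limit cannot be told from its absence.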
